A study of Mus musculus with 6 samples.

Results

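The 10 genes described here belong to one short chemical route, followed in mouse fibroblasts: *Nox4* and its membrane partner *Cyba*, which make reactive oxygen species, the superoxide dismutases *Sod1*, *Sod2* and *Sod3*, catalase (*Cat*), and the glutathione peroxidases *Gpx1*, *Gpx3*, *Gpx7* and *Gpx8*. They were matched by gene symbol in a table of read counts for 25140 genes. All 10 were in the table and all 10 passed the filter on low counts.

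NADPH oxidases move electrons from NADPH across a membrane to oxygen. NOX4 differs from its relatives in that it needs only the CYBA protein (p22phox) as a partner, is active without a trigger, and releases mostly hydrogen peroxide. Superoxide from other sources is turned into hydrogen peroxide by the dismutases, SOD1 in the cytosol, SOD2 in the mitochondrial matrix and SOD3 outside the cell, and the peroxide is then removed by catalase in peroxisomes and by the glutathione peroxidases, GPX1 in the cytosol and mitochondria, GPX3 outside the cell, and GPX7 and GPX8 in the endoplasmic reticulum. NOX4 is a known target of TGFβ in fibroblasts, the connective tissue cells that become contractile, matrix-secreting myofibroblasts under this cytokine.

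The cells were cardiac fibroblasts by the labels and the study's methods, and by the labels came from the adult heart of C57BL/6 mice and were used at passage 1, whereas the study's results speak of mouse embryonic fibroblasts. All were grown in medium with 25 mM glucose and 10% fetal bovine serum, then kept in 1% serum (for 16 h by the labels, 24 h by the study's general methods) before 24 h with vehicle or with TGFβ at 10 ng/ml. By the general methods, serum stayed at 1% during the treatment too. The comparison of 3 vehicle with 3 TGFβ libraries asks which transcripts change under TGFβ, which the study used to induce myofibroblast differentiation. The count columns name the group but no replicate, so libraries are called A, B and C in each group and a letter does not pair a vehicle with a TGFβ library.

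Libraries held 27851677 to 31072338 counts, and all 8 fibroblast markers were detected, with *Col1a1* at 19992 CPM (read counts relative to the library's total, adjusted with TMM factors) in the vehicle mean. With TGFβ, 6 of the 8 fell (20.1% of all tested genes did), *Pdgfra* by 1.37 and *Tcf21* by 1.05 on the log2 scale. Of the 6 cardiomyocyte markers, *Tnnt2* held nearly all of the summed level of 38.4 to 59.1 CPM with vehicle and 27.2 to 40.2 CPM with TGFβ, and *Myh6* had 2 to 16 counts per library. Leukocyte markers summed to 260 to 373 CPM with vehicle and 224 to 334 CPM with TGFβ, and endothelial markers to 423 to 650 CPM and 391 to 533 CPM. Library C was the highest of its group in both sums. Smooth muscle and pericyte markers summed to 250 to 284 CPM with vehicle and 135 to 165 CPM with TGFβ. While the sum fell, 1 of these 6 markers rose, 1 fell and 4 did not pass the test, with a median log2 fold change of 0.08. That is 33.3% called, against 40.7% over all tested genes. The part of such cells in the results was not tested. In such bulk cultures, fewer cells of a type and less RNA per cell cannot be told apart. The treatment was visible in 5 of 7 TGFβ response genes, which rose, among them *Postn* (log2 fold change 1.55) and *Ccn2* (1.49). By the same test 20.5% of all tested genes rose.

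The glutathione peroxidases differ at their catalytic residue, and the codon can be read from the transcripts. In *Gpx1* and *Gpx3* it is TGA, which elsewhere ends translation and here codes for selenocysteine, whereas *Gpx7* and *Gpx8* carry a cysteine codon. The sequences below are the 27 bases around that codon, 5′ to 3′ on the gene's strand (GRCm38, GENCODE M21), with the catalytic codon in capitals. They lie within coding exons, at codon 47 of 201 in exon 1 of *Gpx1*, codon 73 of 226 in exon 2 of *Gpx3*, codon 56 of 186 in exon 2 of *Gpx7* and codon 79 of 209 in exon 2 of *Gpx8*.
Gpx1 (chr9:108339439-108339465, plus strand): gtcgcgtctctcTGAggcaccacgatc
Gpx3 (chr11:54907244-54907270, plus strand): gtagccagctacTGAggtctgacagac
Gpx7 (chr4:108403418-108403444, minus strand): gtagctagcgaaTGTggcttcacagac
Gpx8 (chr13:113045649-113045675, minus strand): gtggctagtgacTGCcgcttcacagac

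*Gpx7* and *Gpx8* also share the way their coding sequence ends. The 30 bases below close their coding sequence in exon 3, and the capitals mark the last 4 codons before the stop codon, the position of the signal that keeps proteins in the endoplasmic reticulum.
Gpx7 (chr4:108400834-108400863, minus strand): ctcatccttcggaaaCGAGAAGACTTGtga
Gpx8 (chr13:113043136-113043165, minus strand): attattcttaaaaagAAAGAGGATCTAtga

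Of the 10 genes, 2 rose with TGFβ (*Nox4* and *Gpx8*), 4 fell (*Sod2*, *Gpx3*, *Sod3* and *Cyba*) and 4 did not pass the test (*Sod1*, *Cat*, *Gpx1* and *Gpx7*; edgeR's quasi-likelihood test, Benjamini-Hochberg adjusted p of 0.05 over the 14334 genes tested). Over all tested genes 40.7% were called, 20.5% higher and 20.1% lower, and the 6 of 10 stand beside that background, on few genes. The groups did not overlap for the same 6 genes, as for 53.3% of all tested genes. The median log2 fold change of the 10 genes was −0.07 against −0.001 over all tested genes, and the median of its absolute size 0.29 against 0.21.

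**Figure D1:**
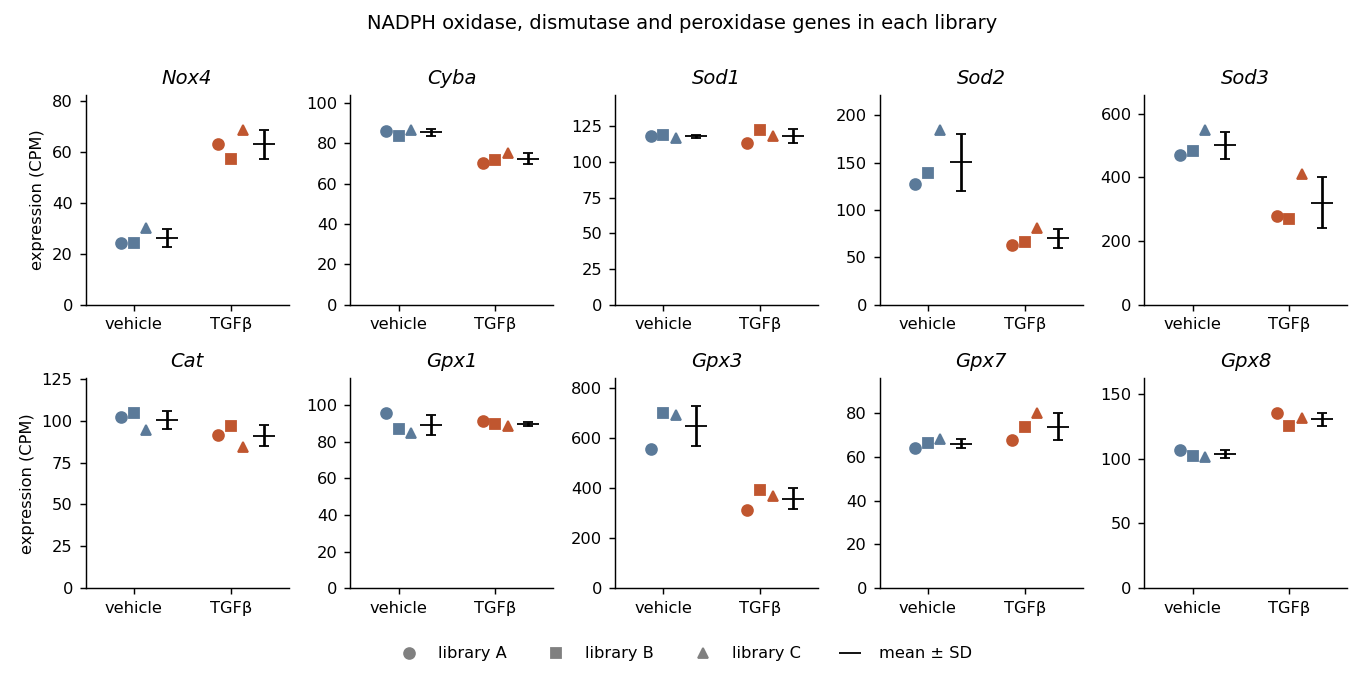
Expression of the 10 genes in each library, in CPM (y axis, a scale of its own for each gene), with vehicle and TGFβ side by side, symbols for libraries A, B and C and a bar for the mean ± SD. *Nox4* rose from 26.1 to 63.0 CPM and *Gpx8* from 103 to 130.5 CPM without overlap, *Sod2*, *Sod3*, *Gpx3* and *Cyba* fell without overlap, and the groups of the other 4 genes overlapped.

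Levels can be compared between genes per length of the principal transcript. With vehicle the order was *Gpx3* (406 CPM per kb), *Sod1* (184), *Sod3* (134), *Cyba* (115), *Gpx8* (99.3), *Gpx1* (83.1), *Gpx7* (51.2), *Cat* (38.4), *Sod2* (25.7) and *Nox4* (6.96), and the mean ± SD ranges of neighbours did not overlap. With TGFβ it was *Gpx3* (224), *Sod1* (184), *Gpx8* (125), *Cyba* (97.2), *Sod3* (85.7), *Gpx1* (83.6), *Gpx7* (57.2), *Cat* (34.8), *Nox4* (16.8) and *Sod2* (11.96), and *Sod3*, with an SD of 21.3 CPM per kb, overlapped both of its neighbours, *Cyba* and *Gpx1*. By this length *Nox4* stood below *Sod2* with vehicle and above it with TGFβ. By the length of all annotated exons the TGFβ levels were nearer, at 7.43 for *Nox4* and 7.004 for *Sod2*. The TGFβ libraries of both genes overlapped by that length, so that *Nox4* above *Sod2* was not shown. The order of the other genes also depends on the length used, which the SD between libraries does not cover. By all annotated exons with vehicle, *Sod1* stood at 29.7 CPM per kb, below *Cat* (38.4), and *Cyba* (82.2) stood below *Gpx8* (98.7).

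*Nox4* (chr7:87246096-87398710 of GRCm38, plus strand), the catalytic subunit, had the largest rise of the 10 genes. Its counts were 765, 719 and 897 in vehicle libraries A, B and C and 1723, 1596 and 1961 with TGFβ, which is 24.0, 24.2 and 30.1 CPM against 63.0, 57.2 and 68.8 CPM. The gap between the groups was wider than the spread inside either. Library C was the highest of each group, as in the endothelial and leukocyte marker sums, and their part in the *Nox4* values was not tested. Without library C of both groups, a setting chosen after seeing the data, the rise was 1.31 on the log2 scale. The mean went from 26.1 ± 3.42 to 63.0 ± 5.82 CPM (SD, n = 3), 2.41-fold or 1.27 on the log2 scale (SE 0.10, 95% interval 1.03 to 1.51, edgeR adjusted p = 7.76e-05). In 1.73% of tested genes the rise was larger.

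*Cyba* (chr8:122424776-122432930, minus strand), whose protein pairs with NOX4 and with several other NADPH oxidases, fell slightly. Its values were 86.0, 83.4 and 86.7 CPM with vehicle and 70.2, 71.6 and 75.2 CPM with TGFβ, both narrow ranges that did not meet. The fall was −0.24 on the log2 scale (SE 0.04, edgeR adjusted p = 0.00277). Per length of the principal transcript, *Cyba* stood at 115 CPM per kb with vehicle and 97.2 with TGFβ, and *Nox4* at 6.96 and 16.8, so that *Cyba* stayed above *Nox4* in both groups.

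The ratio of both counts within a library does not depend on library scaling. *Nox4* counts per *Cyba* count were 0.280, 0.291 and 0.347 with vehicle and 0.897, 0.798 and 0.915 with TGFβ. The mean ratio was 2.85-fold higher (1.51 on the log2 scale), with no overlap between groups. The exact two-sided permutation test over libraries gave p = 0.1, the smallest that 3 against 3 libraries allow, and 0.15 after Benjamini-Hochberg adjustment over the 6 ratios computed.

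Of 20 genes of NADPH oxidases and their subunits, 19 were in the table and 15 were tested. Of these, 3 rose, 4 fell and 8 did not pass, so that 46.7% were called, against 40.7% over all tested genes. *Cybb* (NOX2), the oxidase of phagocytes, had 507, 571 and 630 counts with vehicle and 291, 335 and 334 with TGFβ, a log2 fold change of −0.71 (SE 0.11, edgeR adjusted p = 0.00170). Its level fell from 18.8 to 11.5 CPM. *Rac2*, a GTPase of blood cells that activates NOX2, fell by 1.07 on the log2 scale (adjusted p = 0.0117) from 4.2 to 2.00 CPM. The general leukocyte marker *Ptprc* was at 3.64 and 2.99 CPM (adjusted p = 0.281). Of the leukocyte markers 1 of 9, *Cd14*, fell, against 20.1% of all tested genes. The part of blood cells in these values was not tested. *Sh3pxd2b*, a scaffold protein of invasive cell protrusions that can serve as an oxidase organizer, fell by 0.71 on the log2 scale from 159.6 to 97.4 CPM (adjusted p = 0.000226).

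*Duox1*, a calcium-regulated oxidase, rose by 1.01 on the log2 scale (adjusted p = 0.0116), on 11, 17 and 16 counts with vehicle and 26, 28 and 28 with TGFβ. Its counts were a small fraction of those of *Nox4*. *Cybc1*, a chaperone of NOX2, rose by 0.13 (adjusted p = 0.0273). *Rac1* was at 395 and 398 CPM and *Poldip2*, which binds CYBA, at 74.8 and 72.3 CPM, and neither passed the test. *Nox1* had 0 to 2 counts per library, *Duox2* 1 to 6, *Noxa1* 0 to 1 and *Duoxa2* 0 to 1.

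By their pattern over the 6 libraries, the genes nearest to *Nox4* were *Mtus1*, *Nupr1* and *Tnfrsf12a*. The measure was the root mean square difference of log2 CPM, each gene centred on its own mean, computed for 10372 genes whose mean reached 5 CPM. It was 0.074 for *Mtus1*, 0.085 for *Nupr1* and 0.087 for *Tnfrsf12a*. Their log2 fold changes, which the choice itself holds near that of *Nox4*, were 1.34, 1.22 and 1.40. *Tnfrsf12a*, a receptor for the cytokine TWEAK, was at 45.6, 40.7 and 51.8 CPM with vehicle and 124, 106 and 134 CPM with TGFβ.

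Of the 3 dismutases, *Sod2* and *Sod3* fell and *Sod1* did not pass the test. *Sod1* (chr16:90220754-90226329, plus strand), the copper and zinc enzyme of the cytosol, had 118, 119 and 117 CPM with vehicle and 113, 123 and 118 CPM with TGFβ, ranges that lie within each other. The log2 fold change was 0.0034 with a 95% interval of −0.09 to 0.10 (edgeR adjusted p = 0.959), and its sign turned under other scalings. *Scaf4* overlaps it on the opposite strand without sharing exon bases.

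*Sod2* (chr17:13006846-13040063, plus strand), the manganese enzyme of mitochondria, fell most among the 10 genes. Its values were 128, 139 and 185 CPM with vehicle and 62.8, 66.3 and 81.3 CPM with TGFβ. Library C was the highest in each group, and the highest TGFβ value was below the lowest vehicle value. The mean went from 151 ± 30.3 to 70.1 ± 9.84 CPM (SD, n = 3), a log2 fold change of −1.10 (SE 0.15, 95% interval −1.45 to −0.75, edgeR adjusted p = 0.000944). In 3.79% of tested genes the fall was larger.

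*Sod3* (chr5:52363791-52371418, plus strand), the enzyme secreted into the matrix, also fell. Its values were 471, 483 and 550.1 CPM with vehicle and 279, 270.2 and 412 CPM with TGFβ. TGFβ library C lay well above the other TGFβ libraries, yet below every vehicle library. The log2 fold change was −0.65 (SE 0.16, 95% interval −1.01 to −0.28, edgeR adjusted p = 0.0133), a fall from 501 ± 42.6 to 320.2 ± 79.5 CPM (SD, n = 3). Without TGFβ library A the adjusted p was 0.0556 with a log2 fold change of −0.56. Endothelial and leukocyte marker sums were also highest in library C of each group, and their part in the *Sod2* and *Sod3* values was not tested. Without library C of both groups, the fall was −1.05 for *Sod2* and −0.80 for *Sod3*. This setting was chosen after seeing the data, so its p-values are not given.

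Within libraries, *Sod2* counts per *Sod1* count were 1.09, 1.17 and 1.59 with vehicle and 0.554, 0.540 and 0.687 with TGFβ. *Sod3* counts per *Sod1* count were 4.0, 4.06 and 4.72 with vehicle and 2.46, 2.2 and 3.48 with TGFβ. Neither ratio overlapped between groups (exact permutation p = 0.1 for each, the smallest possible, and 0.15 adjusted). In level per length of the principal transcript, the 3 genes together went from 344 ± 15.2 to 282 ± 24.1 CPM per kb. The share of *Sod1* in that sum went from 53.6% ± 2.71 to 65.6% ± 5.14, that of *Sod2* went from 7.44% ± 1.15 to 4.23% ± 0.23 and that of *Sod3* from 39.0% ± 1.56 to 30.2% ± 4.92 (SD, n = 3). No share overlapped between groups (exact permutation p = 0.1 each). The shares are parts of the same sum, so the falls of *Sod2* and *Sod3* by themselves raise the share of *Sod1*. The order depends on the transcript length used, since *Sod1* stood at 184 CPM per kb with vehicle by its principal transcript and at 29.7 by all its annotated exons, against 134 for *Sod3* by either.

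**Figure D2:**
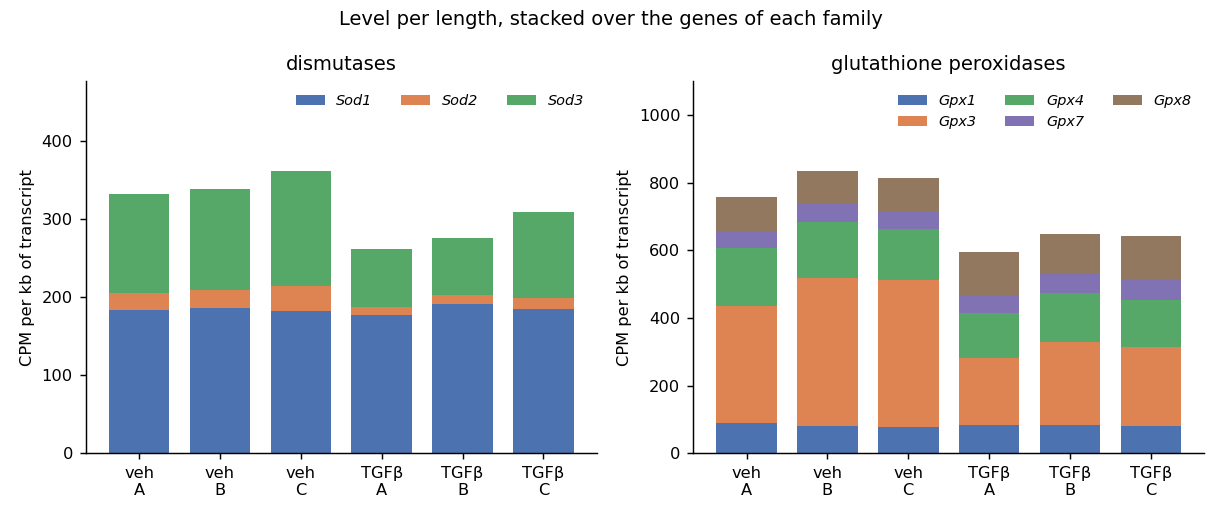
Stacked levels (y axis, CPM per kb of principal transcript) of the dismutases (left) and of the 5 tested glutathione peroxidases (right) in each library (veh, vehicle), 1 bar per library. The dismutase bars reach 332 to 361 with vehicle and 262 to 309 with TGFβ while the *Sod1* segment stays near 184, and the glutathione peroxidase bars shorten mainly in the *Gpx3* segment, 50.5% of the mean vehicle bar and 35.6% with TGFβ.

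In a list of the dismutases and of genes that deliver copper, 8 genes were tested, of which 2 rose, 2 fell and 4 did not pass. That is 50% called, against 40.7% over all tested genes. The genes that fell were *Sod2* and *Sod3*. *Ccs*, the chaperone that hands copper to SOD1, rose by 0.25 on the log2 scale from 24.2 to 28.8 CPM (edgeR adjusted p = 0.0154). *Slc31a1*, the copper importer of the plasma membrane, rose by 0.24 from 74.96 to 88.5 CPM (edgeR adjusted p = 0.00375).

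Among the enzymes that remove hydrogen peroxide inside the cell, neither catalase nor *Gpx1* passed the test. *Cat* (chr2:103453849-103485160, minus strand) had 102, 104 and 94.3 CPM with vehicle and 91.5, 96.98 and 84.4 CPM with TGFβ. Its log2 fold change was −0.14 with an interval of −0.28 to 0.0035 (edgeR adjusted p = 0.109). *Gpx1* (chr9:108338903-108340343, plus strand) had 95.5, 87.1 and 84.6 CPM with vehicle and 91.0, 89.5 and 88.4 CPM with TGFβ. The TGFβ values lay inside the vehicle range, and the log2 fold change of 0.0086 (interval −0.11 to 0.13, adjusted p = 0.912) turned sign under other settings. *Cat* counts per *Gpx1* count also overlapped between groups (exact permutation p = 0.2, log2 difference −0.15).

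*Gpx3* (chr11:54902453-54910377, plus strand), the secreted selenoenzyme, had the highest level per length of the 10 genes and fell. Its values were 554, 698 and 689 CPM with vehicle and 313, 392 and 369 CPM with TGFβ. Library A was the lowest of each group and the groups lay far apart. The log2 fold change was −0.85 (SE 0.11, 95% interval −1.11 to −0.60, edgeR adjusted p = 0.000765), from 647 ± 80.8 to 358 ± 40.6 CPM (SD, n = 3), and 6.26% of tested genes fell more. *Gpx3* counts per *Gpx1* count were 5.80, 8.01 and 8.14 with vehicle and 3.44, 4.38 and 4.18 with TGFβ (exact permutation p = 0.1, log2 difference −0.86). These are the genes with the TGA codon shown above.

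The endoplasmic reticulum peroxidases, with cysteine codons, were higher on average with TGFβ, and one passed the test. *Gpx8* (chr13:113042753-113046410, minus strand) had 107, 102 and 101 CPM with vehicle and 135, 125 and 131 CPM with TGFβ, with no overlap. The log2 fold change was 0.33 (SE 0.04, 95% interval 0.23 to 0.44, edgeR adjusted p = 0.000849). *Gpx7* (chr4:108400390-108406961, minus strand) had 63.8, 66.3 and 68.1 CPM with vehicle and 67.8, 73.7 and 79.8 CPM with TGFβ. The ranges overlapped and the log2 fold change of 0.16 (interval 0.02 to 0.30 before adjustment) did not pass (edgeR adjusted p = 0.0745). Without TGFβ library A it did, at 0.22 with an adjusted p of 0.0283. *Gpx7* counts per *Gpx8* count overlapped between groups (log2 difference −0.18, exact permutation p = 0.2), so that a difference between the 2 responses was not shown.

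**Figure D3:**
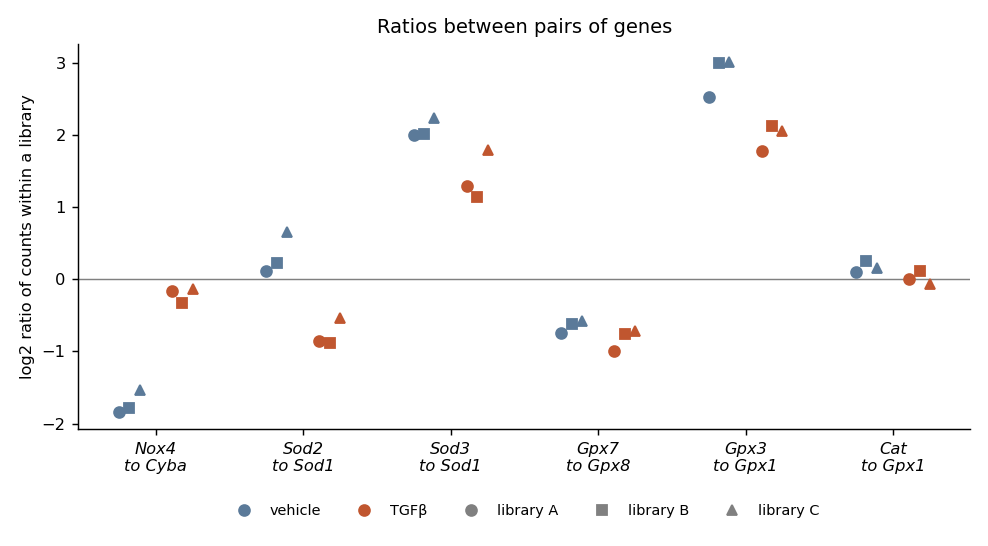
Ratio of the counts of 2 genes within each library (log2 scale on the y axis), vehicle (blue) against TGFβ (orange), symbols for libraries A, B and C. The ratios of *Nox4* to *Cyba* (higher) and of *Sod2* and *Sod3* to *Sod1* and *Gpx3* to *Gpx1* (lower) do not overlap between groups, whereas those of *Gpx7* to *Gpx8* and *Cat* to *Gpx1* do.

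Of 8 glutathione peroxidase genes, 7 were in the table and 5 were tested: *Gpx8* rose, *Gpx3* and *Gpx4* fell, and *Gpx1* and *Gpx7* did not pass. Of the 5, 60% were called, against 40.7% over all tested genes. *Gpx4*, the enzyme that reduces lipid peroxides, fell by 0.23 on the log2 scale from 156 to 133 CPM (edgeR adjusted p = 0.0120). *Gpx2* and *Gpx6* had a single count over the 6 libraries each. In level per length, the 5 tested genes summed to 802 ± 39.2 CPM per kb with vehicle and 629 ± 28.7 with TGFβ. The share of *Gpx3* went from 50.5% ± 4.06 to 35.6% ± 2.49 and that of *Gpx8* from 12.4% ± 0.98 to 19.9% ± 1.65 (SD, n = 3), with no overlap (exact permutation p = 0.1 each). Shares of *Gpx1* (10.4% to 13.3%) and *Gpx7* (6.40% to 9.09%) also rose without overlap, although neither gene passed the test. The shares are parts of the same sum, so the fall of *Gpx3* by itself raises those of the other genes. That of *Gpx4* overlapped.

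**Figure D4:**
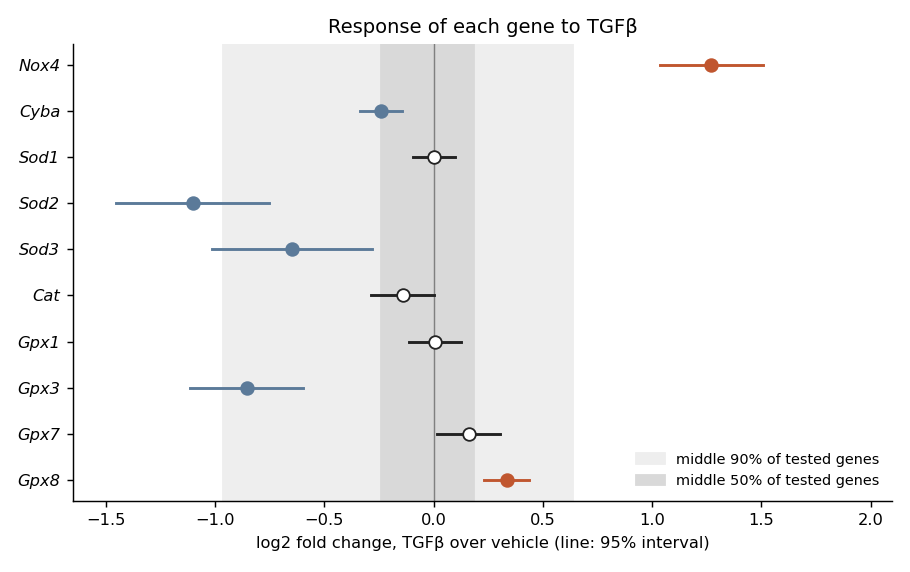
Log2 fold change of TGFβ over vehicle (x axis) for the 10 genes with its 95% interval, filled where edgeR's adjusted p was under 0.05, over grey bands that hold the middle 50% and 90% of all tested genes. *Nox4* at 1.27 lies farthest to the right and *Sod2* at −1.10 farthest to the left, and the intervals of *Sod1*, *Gpx1* and *Cat* span 0.

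In the endoplasmic reticulum, disulfide bonds are made with hydrogen peroxide as a by-product, which GPX7 and GPX8 use. Of the 13 genes of that list, which includes both, 8 rose, none fell and 5 did not pass, with a median log2 fold change of 0.26. Over all tested genes 20.5% were called higher and the median was −0.001, and the list was not tested against them. *P4hb*, protein disulfide isomerase, rose by 0.57 (edgeR adjusted p = 9.46e-05), *Pdia3* by 0.45 and *Pdia4* by 0.44.

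Of 12 genes of catalase, the peroxiredoxins and heme peroxidases, 10 were in the table and 8 were tested. Of these, 3 rose, 1 fell and 4 did not pass, so that 50% were called, against 40.7% over all tested genes. *Pxdn*, a heme peroxidase that crosslinks collagen IV, rose by 0.53 from 286 to 413 CPM (edgeR adjusted p = 6.49e-05). *Prdx3*, a mitochondrial peroxiredoxin, rose by 0.37 and *Prdx6* by 0.24, while *Prdx5* fell by 0.15 (edgeR adjusted p = 0.0384). In this list the calls numbered 2 without vehicle library B.

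For selenoprotein synthesis and supply, 8 genes were tested, of which 1 rose, 3 fell and 4 did not pass. Calls made up 50%, against 40.7% over all tested genes. *Selenop*, the secreted selenium carrier, fell by 1.75 on the log2 scale from 281 ± 31.4 to 83.4 ± 5.19 CPM (SD, n = 3, edgeR adjusted p = 1.03e-05). *Selenbp1*, a selenium-binding protein, fell by 2.40 and *Sepsecs*, which makes selenocysteine on its tRNA, by 0.20. *Lrp8*, a receptor for SELENOP, rose by 1.15 from 11.4 to 25.5 CPM. Genes of import into peroxisomes, where catalase works, gave 3 calls of 10, which is 30%, against 40.7% over all tested genes. Among them *Pex2* rose by 0.24 and *Pex13* by 0.23 on the log2 scale. Without vehicle library B, TGFβ library B or TGFβ library C, that list held 1 call.

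**Figure D5:**
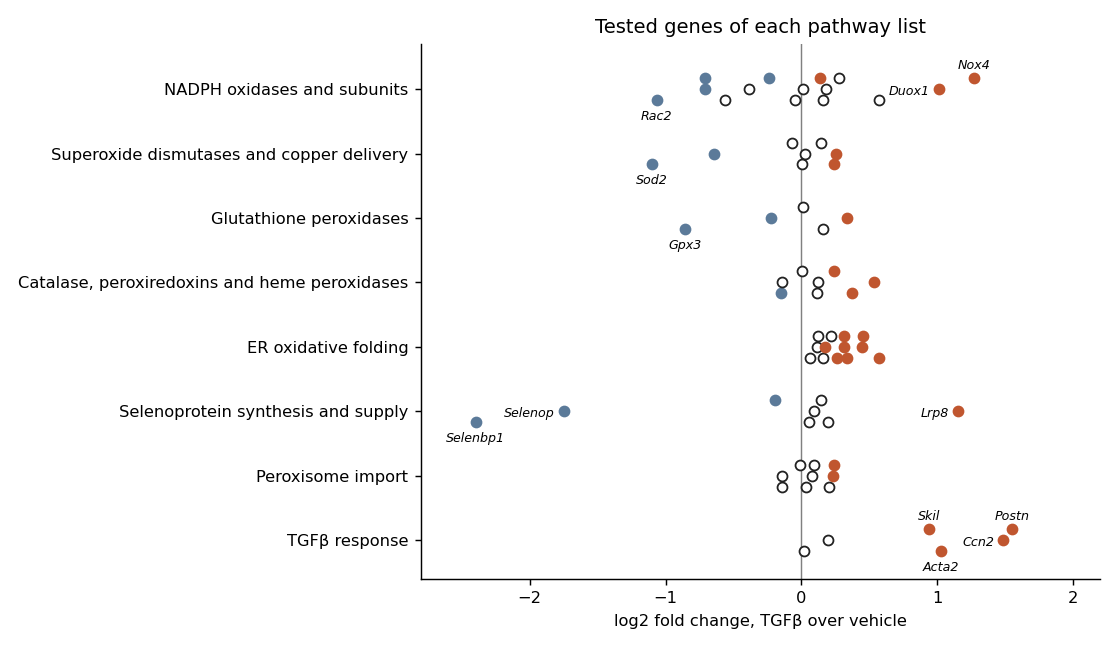
Log2 fold change of TGFβ over vehicle (x axis) for the tested genes of 8 lists (rows, 2 genes not shown), orange where higher and blue where lower at an edgeR adjusted p under 0.05, open where not called, with names for called genes beyond 0.8. The 8 called genes of oxidative folding lie to the right of 0, while the NADPH oxidase list spans *Rac2* at −1.07 to *Nox4* at 1.27.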

How the data were processed

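RNA was measured by stranded poly(A) sequencing, single-end reads of 75 bases, in 3 vehicle and 3 TGFβ libraries, given as biological replicates in the methods. The authors mapped to mm10, used DESeq2 and deposited raw read counts per gene. The aligner, counter and strand use are not given in the sources used here. The deposited columns of the authors' own comparison (normalized mean, fold change, p-values) were not used, and no per-sample column was left out. ATAC-seq data were not analysed here.

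Counts were tested with edgeR 4.0.16 in R 4.3.3 (TMM scaling, filterByExpr on the group, quasi-likelihood test, Benjamini-Hochberg over the 14334 genes kept, threshold 0.05). The fit was tested on simulated data with 100 genes changed by 0.5 and 100 by 1 on the log2 scale, far fewer than were called here. It recovered 58% of the smaller and 80% of the larger changes, and 6.76% of its calls were false. A gene that did not pass can thus have changed. CPM are counts over TMM-scaled library sizes. Levels per kb use the principal transcript of the GENCODE M21 annotation of GRCm38, which matched 25086 identifiers. Single values and ratios were compared with two-sided exact permutation tests over libraries. Counting error is small for the 10 genes, whose counts were 719 or more per library.

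The genes and lists were chosen with earlier results of these data known. Named are the 10 genes, up to 3 called genes per direction with the largest change in each list, any gene of the NADPH oxidase and glutathione peroxidase lists, and the 3 genes nearest to *Nox4*. Some results for genes that this rule takes in are not reported here. In the longest transcript of each gene, windows of 75 bases shared with other genes made up 0.924% of *Sod1*, 0.467% of *Sod2* and none of the other 8 genes. For *Sod1* these were 36 of 3896 windows, while its principal transcript, used for levels, has 641 bases. They were shared with *Gm8566*, which had 45 counts over the 6 libraries against 20650 for *Sod1*. For *Sod2*, 27 of 5787 windows were shared with 50 other genes. Those genes had 365038 counts over the 6 libraries against 19590 for *Sod2*, and their part in the *Sod2* counts was not tested. Alternatives were edgeR with DESeq2 size factors or upper quartile scaling, DESeq2 1.42.0, limma-voom (limma 3.58.1), no filter, a filter of 1 CPM in 3 libraries, an adjusted p of 0.01, and each library left out. Leaving out library C of both groups was chosen after seeing the data.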

Additional observations from a re-analysis of the deposited data

How the results depend on the processing

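The number of genes changed was 5828 at an adjusted p of 0.05 and 3595 at 0.01, ranged from 4489 to 5481 with 1 library left out, and was 5358 without library C of both groups. *Nox4*, *Cyba*, *Sod2*, *Cat*, *Gpx3* and *Gpx8* kept their direction and their side of the threshold under all 13 alternatives. *Sod1* turned sign, to −0.0020 with DESeq2 size factors, −0.018 with upper quartile scaling, −0.0056 with the 1 CPM filter and −0.0086 without library C of both groups, and *Gpx1* turned to −0.012 with upper quartile scaling, −0.00039 with the 1 CPM filter and −0.021 without both library C. With 1 library left out, the log2 fold change ranged from −0.026 to 0.032 for *Sod1*, −0.027 to 0.061 for *Gpx1*, −0.88 to −0.54 for *Sod3* (adjusted p 0.000283 to 0.0556, above the threshold without TGFβ library A) and 0.093 to 0.217 for *Gpx7* (adjusted p 0.0283 to 0.213). Calls in the catalase, peroxiredoxin and heme peroxidase list ranged from 2 to 4 and in the peroxisome import list from 1 to 3, and were 1 in the latter without library C of both groups. They ranged from 5 (with DESeq2) to 7 in the NADPH oxidase list and from 7 to 9 in the oxidative folding list. In the selenoprotein and dismutase lists they ranged from 3 to 4, as in the glutathione peroxidase list. The cause of these shifts was not tested. No paired analysis was possible because the count columns carry no replicate number. With 3 libraries a group, the exact permutation tests could not go below 0.1.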
